A study of Homo sapiens with 9 samples.

Results

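The 10 genes described here encode the pre-B cell receptor, the enzymes and adaptors that carry its signal, and the transcriptional repressor BCL6. They were VPREB1, IGLL1, VPREB3, CD79A, CD79B, SYK, BLNK, BTK, PTPN6 and BCL6, taken by their GENCODE symbols from the 62700 genes of the files, and all 10 were among the 14436 genes with enough counts to be tested. BCL6 was selected on its readout, since it had been seen to fall in the knockout libraries. Its values against the control are therefore a description with no test. The question was how this receptor module stood in leukemia cells whose MEF2C enhancer had been targeted.

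RNA was sequenced from HAL-01, a leukemia line of the B cell precursor type (B-ALL) with the t(17;19) translocation, which produces the fusion transcription factor TCF3::HLF. All 9 libraries came from HAL-01 cells with stable Cas9GFP expression, collected at day 13. A total of 6 libraries had received a guide RNA against the TCF3::HLF-bound enhancer of MEF2C, 3 with sgRNA_96 and 3 with sgRNA_97, and the labels give both the genotype MEF2C Enhancer KO. The other 3 had received the scrambled guide SCR1. The cells were bulk cultures of a single leukemia line, and neither the edited share of cells nor the removal of unedited cells was analysed here. In such bulk RNA, fewer cells of a kind and less RNA per cell cannot be told apart. The labels do not say whether replicates were separate cultures, so p-values measure the spread between these libraries, which may be technical.

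The pre-B cell receptor is the checkpoint of B cell development at which a newly rearranged immunoglobulin heavy chain is tried out. VPREB1 and IGLL1 together form the surrogate light chain that pairs with this heavy chain before a true light chain exists. The complex signals through CD79A and CD79B to the kinase SYK, the adaptor BLNK and the kinase BTK, and the phosphatase SHP-1, encoded by PTPN6, dampens it. BCL6 represses transcription, is known as a survival factor of pre-B cells downstream of this receptor and of germinal centre B cells, and the pre-B cell receptor is active in some subtypes of B-ALL and absent in others.

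The study's oligonucleotide list holds 3 guides against the MEF2C enhancer, and 2 of them, E.1 and E.2, cover the HLF motif itself. They are shown to place the perturbation, with the motif TTACATAA in capitals. Which of the listed guides are sgRNA_96 and sgRNA_97 is not given in the sources used here.
E.1: tagcaTTACATAAtacatgt
E.2: ttagcaTTACATAAtacatg
Each of the 3 guides had 1 exact match in hg38. E.1 lay at chr5:88825103-88825122 and E.2 at chr5:88825104-88825123, both on the minus strand, and they shared 19 of their 20 bases. E.1 was followed by GGG and E.2 by TGG, each a PAM of Cas9. The sites fell inside the MEF2C gene and overlapped none of its exons in GENCODE release 44.

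MEF2C, the gene that holds the guide sites, measured 559.6, 559.0 and 536.1 CPM (counts per 1000000, with library sizes scaled by TMM) in SCR1 replicates 1, 3 and 4. It measured 495.4, 497.7 and 510.1 CPM in sgRNA_96 and 552.8, 504.7 and 494.9 CPM in sgRNA_97. Thus 5 of 6 knockout libraries were below every control and sgRNA_97 replicate 1 was not. The log2 fold change was -0.12 ± 0.042 (SE) with an adjusted p of 0.062, which did not pass the threshold of 0.05. MEF2C was not followed over the alternative settings here. The study, with DESeq2, counts MEF2C among the genes lowered by the enhancer knockout at an adjusted P under 0.05. It also reports less MEF2C RNA by RT-qPCR and less protein by Western blot after the motif was disrupted.

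Expression of the markers of B progenitors fitted the labelled cell type, with 12 of 13 markers at a mean of at least 1 CPM and CD34 at 0.402 CPM. Summed over that list, which contains VPREB1, IGLL1 and CD79A, the level was 6046 to 6232 CPM in the controls and 6624 to 6994 CPM in the knockout libraries. The 7 mature B and plasma cell markers summed to 72.95 to 76.34 CPM in the controls and 58.57 to 68.74 CPM in the knockouts, with CR2 and TNFRSF17 at 0. The 7 myeloid markers summed to 26.11 to 27.73 and 30.11 to 35.9 CPM, with ELANE and FCGR3A at 0. The 7 T and NK markers summed to 9.12 to 9.98 and 7.26 to 8.37 CPM, with CD3D, CD3E, CD3G, CD7 and KLRD1 at 0. NKG7, at a mean of 8.4 CPM, made up nearly all of the T and NK sum. Erythroid and megakaryocytic markers stayed at or below 0.53 CPM in each library, and stromal markers summed to 19.55 to 24.06 and 17.42 to 20.93 CPM. Nearly all of the stromal sum was PDGFRB, at a mean of 19.5 CPM, with COL1A1 at 0.2 CPM and COL1A2 and DCN at 0. The part of these marker lists in the results was not tested. Library depth lay between 15212462 and 29777361 estimated counts, with SCR1 replicate 1 at the upper end.

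In control cells IGLL1, VPREB3 and VPREB1 led the module. Between genes, levels are compared in TPM, transcripts per 1000000, which accounts for transcript length. In SCR1, IGLL1 was at 1765 ± 104 TPM (SD, n = 3), VPREB3 at 576 ± 13.2 TPM and VPREB1 at 519 ± 25.1 TPM, ranks 106, 195 and 209 of the 23719 genes above 0. CD79A followed at 280 ± 21.6 TPM. BLNK at 94.8 ± 0.62 TPM and CD79B at 93.3 ± 6.50 TPM overlapped in the controls. BTK was at 67.5 ± 1.59 TPM, PTPN6 at 63.2 ± 3.31 TPM and SYK at 42.8 ± 0.737 TPM. BCL6 was the lowest at 19.5 ± 1.59 TPM, rank 5772. The other neighbours in this order did not overlap among the 3 control libraries, although the gap between BTK and PTPN6 was from 65.91 to 65.63 TPM. In the knockout libraries BLNK at 115 ± 4.26 TPM no longer overlapped CD79B at 82.6 ± 6.93 TPM, while CD79B overlapped BTK at 75.4 ± 4.48 TPM.

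**Figure D1:**
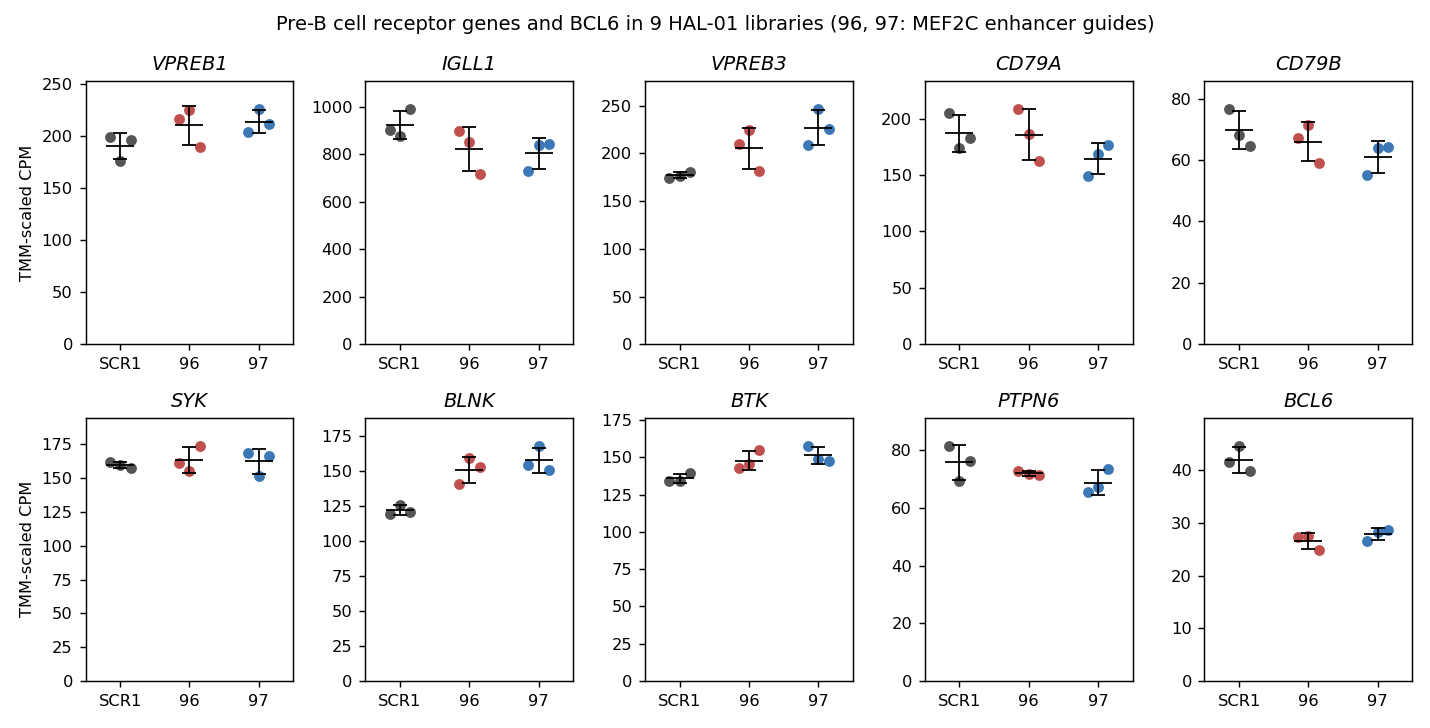
TMM-scaled CPM of the 10 genes in each library (points; 3 libraries per group) with group mean and SD (black), for SCR1 and the enhancer guides 96 and 97, each panel starting at 0. BCL6 stands lower in all 6 knockout libraries than in any control, and BLNK, VPREB3 and BTK stand higher in all 6. Of all genes tested, 20.3% had no overlap between knockout and control CPM, in either direction.

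Against SCR1, 3 of the 9 genes other than BCL6 passed the test in the 6 knockout libraries, all of them higher, namely BLNK, VPREB3 and BTK. The edgeR quasi-likelihood test called 20.7% of all genes tested at an adjusted p under 0.05, 10.1% higher and 10.6% lower. A share of 3 in 9 rests on too few genes to be set apart from that background. The members' median log2 fold change without BCL6 was 0.029, and that of all genes tested was 0.0028. With sgRNA_96 alone, BLNK was the gene called, where 11.2% of all genes were. With sgRNA_97 alone, BLNK and VPREB3 were called, where 15.1% were. Both guides were set against the same 3 control libraries, so their values are given side by side and their likeness is not a result.

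**Figure D2:**
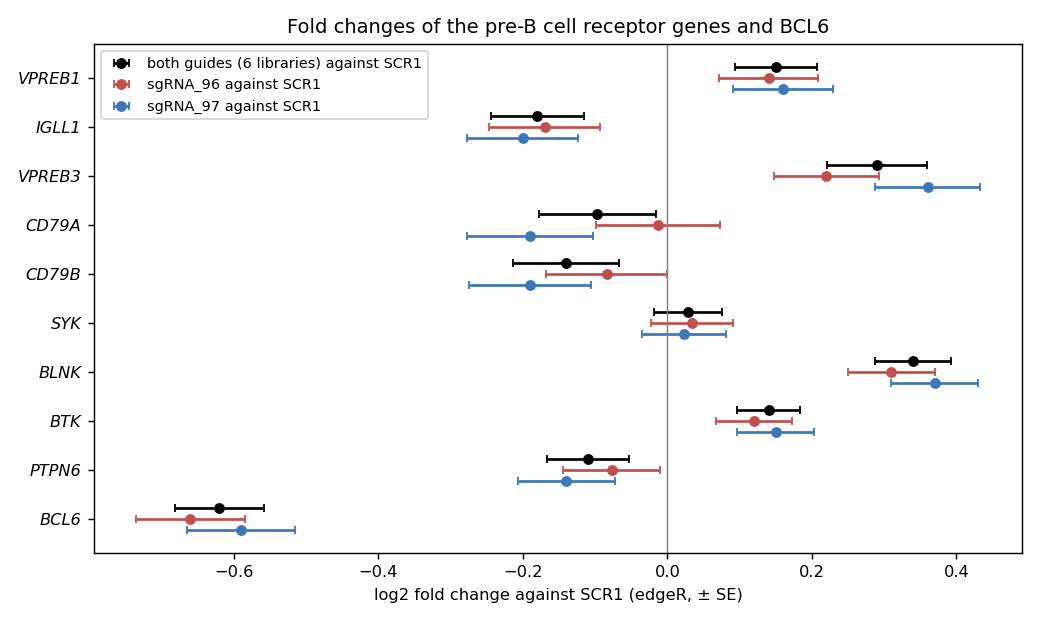
Log2 fold change against SCR1 with its SE (edgeR) for each of the 10 genes, for both guides together (black) and for each guide. BCL6 lies farthest from 0 at -0.62, BLNK and VPREB3 lie highest at 0.34 and 0.29, and SYK lies near 0.

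VPREB3 rose, and neither VPREB1 nor IGLL1, the genes of the surrogate light chain, passed the test. VPREB3, a VPREB1-like protein that associates with newly made heavy chains inside the cell, measured 174.3, 176.5 and 180.4 CPM in SCR1, 210.4, 224.1 and 182.0 CPM in sgRNA_96 and 209.2, 246.4 and 225.8 CPM in sgRNA_97. All 6 knockout libraries lay above every control, the nearest being sgRNA_96 replicate 4. The log2 fold change was 0.29 ± 0.069 (SE), or 1.22-fold, with an adjusted p of 0.00744. By guide it was 0.22 with sgRNA_96 (adjusted p = 0.0689) and 0.36 with sgRNA_97 (adjusted p = 0.00448). The sgRNA_96 value passed in 3 of 17 alternatives, among them without sgRNA_96 replicate 4 (0.29, adjusted p = 0.0154), and without sgRNA_96 replicate 3 it was 0.15 (adjusted p = 0.304).

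VPREB1, the variable-like part of the surrogate light chain, measured 199.4, 176.5 and 196.6 CPM in SCR1, 216.1, 225.2 and 189.5 CPM in sgRNA_96 and 204.2, 225.9 and 211.7 CPM in sgRNA_97. Here 5 of 6 knockout libraries were above every control and sgRNA_96 replicate 4 was not. The log2 fold change of 0.15 ± 0.057 did not pass the test (adjusted p = 0.073), and it passed in 2 of 17 alternatives, without sgRNA_96 replicate 4 (0.18, adjusted p = 0.0213) and with DESeq2 (adjusted p = 0.0435). Over the 17 the adjusted p ran from 0.0213 to 0.326, the highest without SCR1 replicate 3, where the change was 0.096.

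IGLL1, the constant-like part of the same chain, had values in the other direction. It measured 902.4, 875.4 and 989.9 CPM in SCR1, 898.1, 850.4 and 718.5 CPM in sgRNA_96 and 729.1, 837.7 and 844.5 CPM in sgRNA_97, so that 5 of 6 knockout libraries were below every control. The log2 fold change of -0.18 ± 0.064 did not pass the threshold (adjusted p = 0.0543). It passed in 4 of 18 alternatives, among them without sgRNA_96 replicate 1 (-0.21, adjusted p = 0.0156) and with DESeq2 (adjusted p = 0.0286). Over the 18 the adjusted p ran from 0.00181 to 0.335, and without SCR1 replicate 4 the change was -0.13 (adjusted p = 0.28). IGLL1 shares sequence with IGLL5, an immunoglobulin lambda-like gene at the light chain locus, and Salmon divides reads that match both. With the counts of IGLL1 and IGLL5 summed, the change was -0.19 (adjusted p = 0.042).

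The values of VPREB1 and IGLL1 are also given as the ratio of their CPM in each library. This ratio was chosen after the opposite signs of the genes had been seen, so it is a description with no test. It was 0.2209, 0.2016 and 0.1986 in SCR1, 0.2406, 0.2648 and 0.2637 in sgRNA_96 and 0.28, 0.2696 and 0.2507 in sgRNA_97. All 6 knockout libraries were above the controls, with means of 0.262 ± 0.014 (SD, n = 6) and 0.207 ± 0.0121 (SD, n = 3). The difference was 0.34 on the log2 scale. In TPM the means were 0.373 and 0.295.

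**Figure D3:**
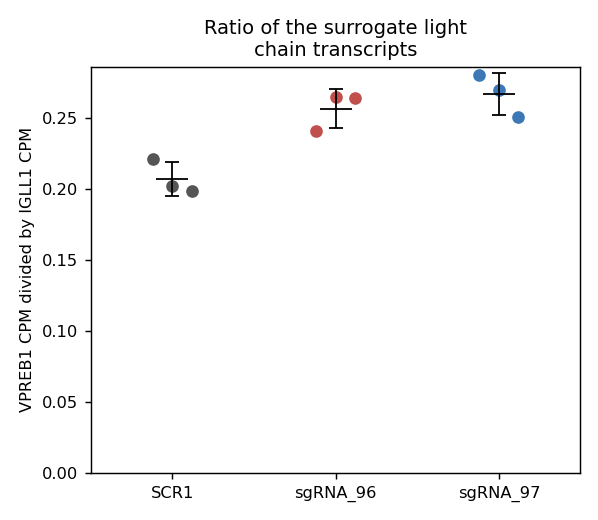
Ratio of VPREB1 to IGLL1 CPM in each library (points) with group mean and SD (black), 3 libraries per group, on an axis from 0. The 3 SCR1 libraries lie between 0.1986 and 0.2209 and the 6 knockout libraries between 0.2406 and 0.28.

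The promoters of these 3 genes, of BLNK, which had the clearest rise, and of BCL6 are shown. Sequences are those of RefSeq on GRCh38.p14, 250 bases before to 50 after the start, and 9 of the 10 genes matched (CD79B had no entry). Capitals mark matches, on either strand, to the motifs TTACGTAA and TTACATAA (HLF and related PAR bZIP factors), TATTTATA (MEF2), TCCCNNGGG (EBF1), CAGCTG and CAGGTG (E proteins) and TTCNNNGAA (BCL6 and STAT factors).
VPREB1 (chr22:22244536-22244835, plus strand): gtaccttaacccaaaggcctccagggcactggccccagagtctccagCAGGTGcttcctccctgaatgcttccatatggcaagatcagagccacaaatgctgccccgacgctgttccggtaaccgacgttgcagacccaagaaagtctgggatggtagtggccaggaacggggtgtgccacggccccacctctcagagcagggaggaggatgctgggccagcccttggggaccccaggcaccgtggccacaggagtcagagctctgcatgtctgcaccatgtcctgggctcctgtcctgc
VPREB3 (chr22:23754376-23754675, minus strand): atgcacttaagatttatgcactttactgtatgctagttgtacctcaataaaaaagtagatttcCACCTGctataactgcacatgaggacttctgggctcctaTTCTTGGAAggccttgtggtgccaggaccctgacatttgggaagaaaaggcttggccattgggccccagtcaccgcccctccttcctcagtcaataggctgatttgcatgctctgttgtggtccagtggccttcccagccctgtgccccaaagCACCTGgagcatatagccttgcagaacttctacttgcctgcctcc
IGLL1 (chr22:23580241-23580540, minus strand): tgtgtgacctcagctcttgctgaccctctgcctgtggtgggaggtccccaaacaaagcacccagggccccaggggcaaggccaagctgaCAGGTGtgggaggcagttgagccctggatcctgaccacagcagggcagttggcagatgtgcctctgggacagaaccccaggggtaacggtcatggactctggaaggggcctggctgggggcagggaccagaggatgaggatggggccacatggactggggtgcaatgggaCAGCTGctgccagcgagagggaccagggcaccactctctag
BLNK (chr10:96271520-96271819, minus strand): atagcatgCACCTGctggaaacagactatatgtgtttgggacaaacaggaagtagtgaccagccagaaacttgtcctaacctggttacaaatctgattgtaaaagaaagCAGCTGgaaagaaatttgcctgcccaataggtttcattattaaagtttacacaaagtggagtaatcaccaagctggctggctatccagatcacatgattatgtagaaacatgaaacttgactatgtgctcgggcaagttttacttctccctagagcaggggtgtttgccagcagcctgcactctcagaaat
BCL6 (chr3:187745419-187745718, minus strand): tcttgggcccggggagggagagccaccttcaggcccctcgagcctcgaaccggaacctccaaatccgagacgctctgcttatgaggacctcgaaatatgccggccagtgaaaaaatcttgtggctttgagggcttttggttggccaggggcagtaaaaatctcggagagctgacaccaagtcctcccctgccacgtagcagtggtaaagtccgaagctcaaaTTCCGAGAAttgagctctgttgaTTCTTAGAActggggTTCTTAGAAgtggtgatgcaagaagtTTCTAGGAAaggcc
None of the 9 promoters held either HLF motif or the MEF2 motif, which were present in 0.139%, 0.911% and 1.49% of 27326 promoters of that length. CAGGTG, an E-box, was in VPREB1, VPREB3, IGLL1, CD79A, SYK, BLNK and PTPN6 and in 20.6% of all promoters. CAGCTG was in IGLL1 and BLNK and in 17.7% of all. TCCCNNGGG was found in PTPN6, as overlapping matches, and in 8.85% of all. TTCNNNGAA matched 4 times in the BCL6 window and once in that of VPREB3, whereas 7.88% of all promoters held at least 1 match and 6 of 27326, or 0.022%, held at least 4. Repeated matches were counted over all promoters for this motif alone, up to the 4 seen in BCL6. The RefSeq start of BCL6 lies 257 bases inside the GENCODE gene start, so the whole window covers bases that GENCODE assigns to the gene. A match of letters is a description of the sequence and not a site of binding, and absence of a match says only that these letters are not in this window.

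CD79A and CD79B, the immunoglobulin alpha and beta chains that carry the signal into the cell, did not pass the test. CD79A measured 205.4, 173.8 and 182.5 CPM in SCR1, 208.4, 186.8 and 162.5 CPM in sgRNA_96 and 149.1, 168.3 and 176.3 CPM in sgRNA_97, and the groups overlapped. Its log2 fold change was -0.097 ± 0.081 (adjusted p = 0.435). CD79B measured 76.55, 68.19 and 64.61 CPM in SCR1, 67.21, 71.55 and 59.03 CPM in sgRNA_96 and 55.13, 63.85 and 64.2 CPM in sgRNA_97. These groups overlapped as well, and the log2 fold change was -0.14 ± 0.073 (adjusted p = 0.205). For both genes the estimate was nearer to 0 with sgRNA_96, at -0.013 and -0.084, than with sgRNA_97, at -0.19 for each. The difference between the guides did not pass the test for either.

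Of the kinases and the adaptor, BLNK showed the clearest rise. BLNK is the scaffold on which SYK brings BTK and phospholipase C together, and it is regarded as a tumour suppressor of pre-B cells. It measured 118.9, 125.8 and 120.5 CPM in SCR1, 140.3, 158.8 and 152.6 CPM in sgRNA_96 and 153.8, 167.6 and 150.4 CPM in sgRNA_97. Every knockout library lay above every control. The log2 fold change was 0.34 ± 0.052, or 1.27-fold, with an adjusted p of 0.000294. It was 0.31 with sgRNA_96 (adjusted p = 0.00413) and 0.37 with sgRNA_97 (adjusted p = 0.000962), and it passed the threshold in all 17 alternative settings. BLNK shares 364 exon bases with ZNF518A on the opposite strand and 854 with the pseudogene NPM1P25 on its own strand, and reads there cannot be assigned with certainty.

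Summed over its transcripts, BTK, the kinase that BLNK couples to phospholipase C, rose slightly. It measured 133.9, 134.4 and 139.3 CPM in SCR1, 142.5, 145.7 and 154.9 CPM in sgRNA_96 and 157.6, 148.8 and 147.4 CPM in sgRNA_97, without overlap. The log2 fold change was 0.14 ± 0.044, or 1.1-fold, with an adjusted p of 0.0361. The call was lost in 11 of 17 alternatives, among them the omission of SCR1 replicate 1 (adjusted p = 0.15), 3 (0.116) or 4 (0.0688), of sgRNA_96 replicate 4 (0.0594) and of sgRNA_97 replicate 1 (0.0621) or 4 (0.0504). Over all genes, 20.3% had CPM values that did not overlap between knockout and control libraries.

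SYK, the first kinase of the cascade, measured 162.1, 159.5 and 157.2 CPM in SCR1, 161.3, 155.4 and 173.8 CPM in sgRNA_96 and 168.8, 151.6 and 166.5 CPM in sgRNA_97. The knockout values lay on both sides of the controls, and the log2 fold change was 0.029 ± 0.047 (adjusted p = 0.716). PTPN6, the phosphatase that limits the signal, measured 81.47, 69.33 and 76.38 CPM in SCR1, 72.82, 71.6 and 71.4 CPM in sgRNA_96 and 65.52, 67.06 and 73.53 CPM in sgRNA_97. Its groups overlapped and its log2 fold change was -0.11 ± 0.057 (adjusted p = 0.19).

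BCL6 was the member with the largest difference. It measured 41.62, 44.59 and 39.75 CPM in SCR1, 27.24, 27.53 and 24.9 CPM in sgRNA_96 and 26.61, 28.32 and 28.63 CPM in sgRNA_97. All 6 knockout libraries were below every control. The means were 27.2 ± 1.34 CPM (SD, n = 6) and 42.0 ± 2.44 CPM (SD, n = 3), so the knockout stood at 64.9% of the control in the fit, a log2 fold change of -0.62 ± 0.062. It was -0.66 with sgRNA_96 and -0.59 with sgRNA_97, and over the alternatives for both guides together it lay between -0.66 and -0.56. No test is given for these values, because BCL6 was chosen by them. What the choice did not use is the comparison of the guides, where BCL6 differed by 0.07 ± 0.078 (adjusted p = 1.0). The study names BCL6 among the transcription factor genes that were higher after knockout of TCF3::HLF in HAL-01, the other direction. That knockout was of the fusion and not of the MEF2C enhancer, and the difference between the experiments was not tested.

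Between sgRNA_97 and sgRNA_96, none of the 10 genes passed the edgeR test, none had an unadjusted p under 0.05, and DESeq2 called 0. The lowest unadjusted p were 0.0636 for CD79A, at a log2 difference of -0.17 ± 0.087, and 0.0653 for VPREB3, at 0.14 ± 0.073. Over all genes 0.0208% were called.

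The transcript composition differed between the genes. VPREB3-201 held 99.4% of its gene's counts, SYK-204 96.3%, VPREB1-202 94.6%, CD79A-201 93.5%, IGLL1-202 86.2% and PTPN6-201 83.8%. CD79B was divided between CD79B-203 at 46.1% and CD79B-201 at 44.3%, and BTK between BTK-201 at 69.1% and the retained-intron transcript BTK-207 at 22.9%. BCL6-202 carried 85.2% of BCL6. It was at 36.4 ± 2.29 CPM in the controls, between 34.5 and 38.9, and at 22.7 ± 2.95 CPM in the knockouts, between 18.6 and 26.6.

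BLNK was spread over 25 transcripts, 11 of which held at least 1% of its counts and 4 at least 10%. The canonical BLNK-201 held 23.4% ± 4.16 (SD, n = 3) of them in the controls and 24.3% ± 2.66 (SD, n = 6) in the knockouts. BLNK-215, a shorter protein-coding transcript of 1753 bases, went from 10.4% ± 1.55 to 19.5% ± 1.84. Its level was 12.6 ± 1.56 CPM in SCR1, at most 13.6, and 30.0 ± 4.36 CPM in the knockouts, at least 25.6. The transcript BLNK-224, annotated for nonsense-mediated decay, was at 10.7 ± 1.85 and 17.2 ± 0.947 CPM. These shares rest on how Salmon divides reads between overlapping transcripts, they were singled out after their values were seen, and they are given without a test.

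**Figure D4:**
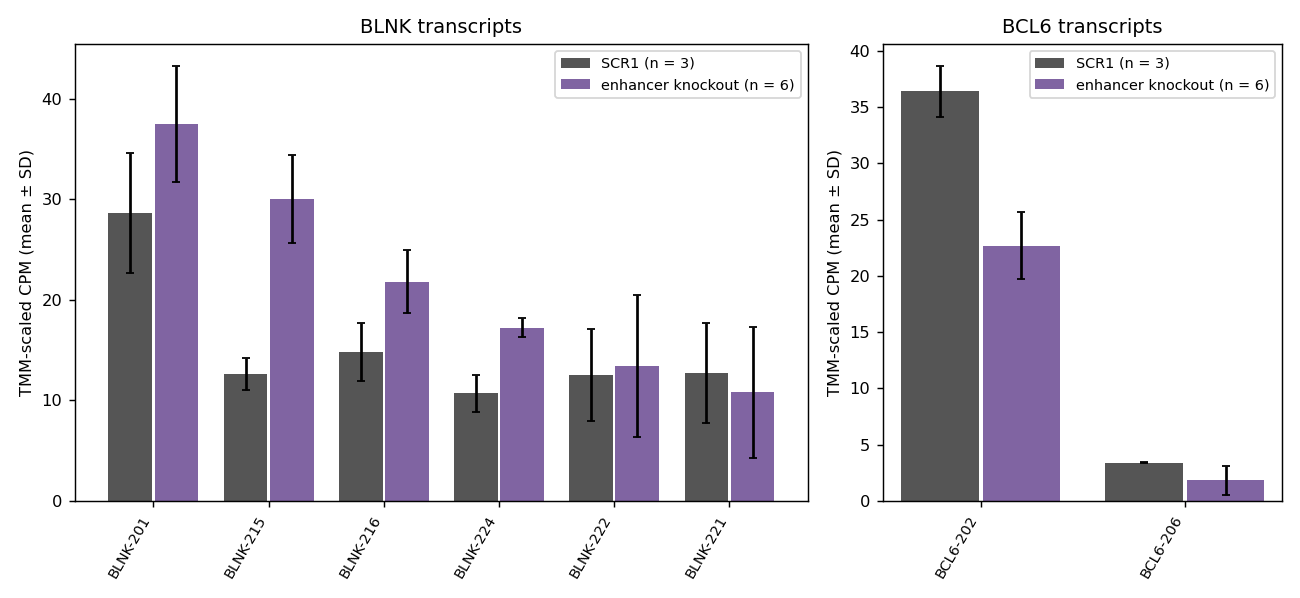
Mean TMM-scaled CPM with SD of the BLNK and BCL6 transcripts that held at least 5% of their gene's counts, in SCR1 (3 libraries) and in the enhancer knockout (6 libraries), on axes from 0. BLNK-215 shows the widest gap among the BLNK transcripts, 12.6 against 30.0 CPM, and BCL6-202 carries most of the BCL6 difference, 36.4 against 22.7 CPM.

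Of 136 further genes of the pathway in 6 lists, 113 were tested and 38 were called, 24 higher and 14 lower. That is 33.6% of those tested, beside 20.7% of all genes. Without SCR1 replicate 1, the deepest library, 20 were called, where 1503 of 14731 genes tested were. With limma on log2(TPM + 1), 19 were called, where 1240 of 14436 genes were. Among 31 tested signalling components other than the members, 6 rose and 5 fell, and the list's median log2 fold change was 0.049. The Src family kinase FYN rose to 91.08 ± 3.73 CPM (SD, n = 6) against 68.55 ± 6.57 CPM (SD, n = 3) in SCR1, a log2 fold change of 0.41 (adjusted p = 0.000179). LYN, the Src family kinase that phosphorylates CD79A and CD79B in B cells, fell from 66.44 ± 2.79 to 57.94 ± 3.10 CPM (-0.20, adjusted p = 0.0175). The exchange factors VAV3 and VAV2 moved apart, VAV3 at 0.21 (adjusted p = 0.00435) and VAV2 at -0.26 (adjusted p = 0.00304). PLCG2, the phospholipase downstream of BTK, rose by 0.15 (adjusted p = 0.0169). CD81, a tetraspanin of the B cell surface, fell by 0.23 (adjusted p = 0.0048). The other called genes were ITPR1, SOS1 and PIK3R1, higher, and AKT1 and GRB2, lower.

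Inhibitors of the receptor were called in 9 of 20 tested genes, 7 higher and 2 lower, with a median of 0.20. That is 45.0%, beside 20.7% of all genes tested, of which 10.1% were higher and 10.6% lower. With each guide alone, 4 of the 9 were called, all of them higher. With 20 genes tested, nothing particular to the list is read from this share. PAG1, the membrane adaptor that brings the inhibitory kinase CSK to Src kinases, rose from 137.3 ± 7.21 to 200.6 ± 11.7 CPM (0.55, adjusted p = 5.23e-06). CD72, an inhibitory B cell surface receptor, rose by 0.47 (adjusted p = 0.00364) and LAIR1, an inhibitory collagen receptor, by 0.42 (adjusted p = 2.8e-05). The adaptor DOK1 fell by 0.35 (adjusted p = 0.0154). CBLB, DOK3 and UBASH3B were among the others that were higher, and FCRLA was lower. In this list 10 of 30 genes had too few counts to be tested.

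The immunoglobulin heavy chain IGHM, the partner of the surrogate light chain, was at 195.5 ± 12.4 CPM in SCR1 and 200.1 ± 17.8 CPM in the knockouts, a log2 fold change of 0.03 that did not pass (adjusted p = 0.774). Of the 5 tested genes of its list none was higher and 2 were lower, beside 10.1% higher and 10.6% lower of all genes. With 5 genes tested, nothing particular to the list is read from this count. IGLL5 measured 14.33, 14.2 and 16.83 CPM in SCR1, and its knockout values ran from 5.23 to 9.22 CPM with a median of 7.36. The groups were apart, with a log2 fold change of -1.03 ± 0.131 (adjusted p = 5.92e-05). Salmon divides reads that match both IGLL5 and the far more abundant IGLL1, at 922.5 CPM in SCR1. What that division adds to the IGLL5 difference was not tested. IGLC2 was called lower at a mean of 1.34 CPM in SCR1, where few reads stand behind it, and it shares sequence with the other lambda constant genes.

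Of 21 transcription factors known to control these genes or BCL6, 5 rose and 3 fell, 38.1% of them beside 20.7% of all genes tested, and the list's median was near 0. Nothing particular to the list is read from this share, with 21 genes tested. IKZF3 (Aiolos), which acts downstream of the pre-B cell receptor, rose from 6.19 ± 0.546 to 11.4 ± 1.19 CPM (0.89, adjusted p = 9.07e-05). TCF4, an E protein, rose by 0.39 (adjusted p = 1.39e-05) and FOXO1, which drives RAG expression in pre-B cells, by 0.37 (adjusted p = 0.000157). IKZF2 (Helios) fell from 59.44 ± 1.42 to 44.99 ± 3.82 CPM (-0.40, adjusted p = 0.00046). IRF4 and IKZF1 (Ikaros) were also lower, and FOXO3 and STAT5A were higher. PAX5 at 568.2 and 559.2 CPM (adjusted p = 0.696) and EBF1 at 249.9 and 234.7 CPM (adjusted p = 0.133) did not pass.

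Around BCL6 itself, 2 of 17 tested relatives and corepressors rose and none fell, 11.8% of them beside 20.7% of all genes tested, with a list median of 0.11. BCL6B, the closest relative of BCL6, rose from 7.85 ± 1.1 to 12.9 ± 0.769 CPM (0.71, adjusted p = 0.000235). It measured 9.10, 7.47 and 6.99 CPM in SCR1 and 11.9 to 14.1 CPM in the knockouts. MTA3, a subunit of the NuRD complex that works with BCL6, was just past the threshold at 0.18 (adjusted p = 0.0479). MTA3 passed with neither guide alone (adjusted p = 0.0929 with sgRNA_96 and 0.155 with sgRNA_97). Among 19 tested genes known from other work to be repressed by BCL6, 4 rose and 2 fell, 31.6% of them beside the same 20.7%, with a median of 0.11. With 19 genes tested, nothing particular to the list is read from this share. TNFRSF14 rose by 0.47 (adjusted p = 0.00363), TNFAIP3, an inhibitor of NF-kB signalling, by 0.40 (adjusted p = 0.000415) and the cell cycle inhibitor CDKN1B by 0.16 (adjusted p = 0.0269). CXCR4 was also called higher. The checkpoint kinase CHEK1 fell by 0.30 (adjusted p = 0.000435), and CD69, at 1.45 CPM in the controls, fell by 1.28 ± 0.427 (adjusted p = 0.0443). PRDM1, the plasma cell regulator that BCL6 represses, was at 2.69 ± 0.359 and 3.46 ± 0.297 CPM, above every control in 6 of 6 libraries, and did not pass (0.37, adjusted p = 0.151). Such a lack of overlap, in either direction, was seen in 20.3% of all genes tested.

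**Figure D5:**
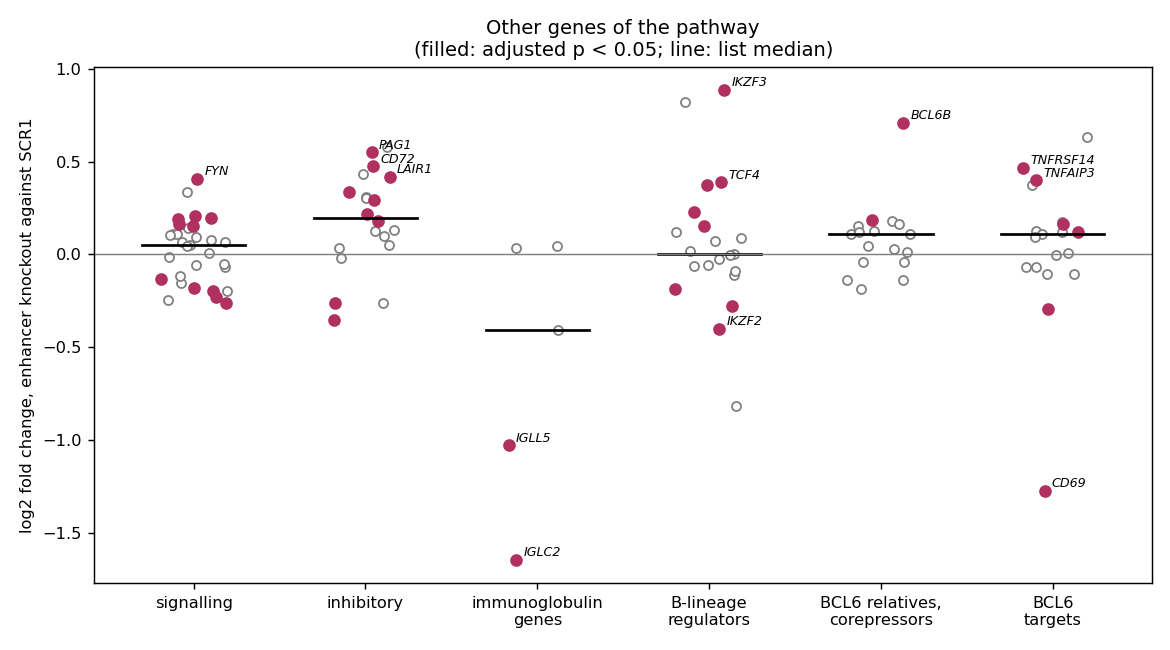
Log2 fold change of each tested gene in the 6 lists, enhancer knockout against SCR1; filled points passed the edgeR test at an adjusted p under 0.05, open points did not, and a line marks each list's median. Called genes lie on both sides of 0 in 4 lists, with PAG1 at 0.55 and IKZF3 at 0.89 among the higher and IGLL5 at -1.03 among the lower.

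Among the genes whose log2 CPM followed BCL6 most closely over the 9 libraries were EYA4 (Pearson r = 0.985), GRM4 (0.982), ATG3 (0.98) and PSMB7 (0.977). All 4 genes, like BCL6, were below every control in 6 of 6 knockout libraries, and this shared difference enters the r values. For deviations from the group means the r values were 0.793, 0.627, 0.845 and 0.514. EYA4, a transcriptional coactivator and phosphatase, was at 35.73 ± 1.93 and 21.79 ± 1.60 CPM. The points share their libraries and depth, and these genes were picked from all tested genes for this likeness, so the values are a description.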

How the data were processed

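The members and gene lists were chosen with earlier results of these data known, so their patterns are not independent evidence. The authors aligned reads from TruSeq libraries with STAR and quantified transcripts with Salmon 1.10.1 on GRCh38, per their processing notes. They deposited estimated counts per transcript, without normalization, and TPM values, which are scaled to 1000000 per library. All 252835 transcripts matched GENCODE release 44. Salmon divides reads between similar sequences, and whether it used strand is not given in the sources used here.

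The estimated counts of a gene's transcripts were added and rounded. Genes passing filterByExpr at a minimum count of 10 entered the edgeR 4.0.16 quasi-likelihood test (R 4.3.3, TMM scaling, two-sided), with Benjamini-Hochberg adjustment over all 14436 genes and a threshold of 0.05. The 6 knockout libraries were fitted against the 3 controls, and each guide in a fit of 3 groups. Fold changes in sentences without another test come from these fits. DESeq2 1.42.0 and limma 3.58.1 on log2(TPM + 1) were alternatives. Steps were tested on simulated data. No replicate pair was a duplicate, with chi-square values of 4.38 to 8.82 per degree of freedom. Genes were named by rule: all members, LYN, PLCG2, IGHM, PRDM1 and MEF2C, up to 4 called genes with the largest change and a mean of at least 1 CPM per list, and the 5 genes most like BCL6. Some genes that this rule names are not reported here. Others named, among them PAX5, EBF1 and further called genes, were chosen after their values were seen. Coordinates are 1-based on hg38.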

Additional observations from a re-analysis of the deposited data

Results flagged for a closer look

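Of 11 genes checked over the 6 knockout libraries, MEF2C had a library that stood apart from the others. In sgRNA_97 replicate 1 it measured 552.8 CPM, and the gap to the next library was 0.737 of the whole range, above Dixon's critical value for 6 samples. Chance flags about 1 in 20 such groups, or 0.55 of 11. None of the 10 receptor genes was flagged in this way.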

How the results depend on the processing

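Of the 9 genes other than BCL6, 3 were called in the knockout against SCR1, 1 with sgRNA_96 and 2 with sgRNA_97. Over all 14436 genes tested, 2984, 1615 and 2181 were called in the same comparisons. With DESeq2 the members' counts were 5, 2 and 4, beside 3246, 1916 and 2383 over all genes. Without a filter on low counts they were 3, 3 and 5, beside 3199, 2143 and 2599 of 27255 genes. With limma on log2(TPM + 1) without a filter they were 1, 1 and 1, beside 649, 202 and 311 of 27255. Leaving out a library each in turn gave 2 to 4, 1 to 2 and 2 to 3 members. Over all genes these fits called 1503 to 3547, 743 to 1989 and 987 to 2451. Of the other pathway genes, 38 were called, and 25 with a gene length offset, 19 with limma on log2(TPM + 1) or log2(TPM + 0.1), 7 with limma without a filter, and 20 (without SCR1 replicate 1) to 42 (without sgRNA_96 replicate 1) with a library left out. The count over all genes, 2984, was 1526 with the length offset, 1240 and 1246 with limma at the pseudocounts of 1 and 0.1, 649 without a filter on TPM, and 1503 or 1813 without SCR1 replicate 1 or 4. Without sgRNA_96 replicate 1 it was 3547 of 14348 genes tested. The split of higher and lower calls over all genes in the knockout against SCR1 moved by under 10 percentage points. Signs of the members' fold changes turned only for values near 0 that did not pass, when a library was left out. With sgRNA_96 these were CD79A (-0.101 to 0.0728) and SYK (-0.0144 to 0.0698), and with sgRNA_97 SYK (-0.00754 to 0.0737). Between the guides they were VPREB1 (-0.0453 to 0.077), IGLL1 (-0.122 to 0.0341) and SYK (-0.048 to 0.0382). The causes were not tested. The replicate numbers did not pair the libraries, since deviations of same-numbered libraries correlated at -0.084 to 0.065 and those of other pairs at -0.069 to 0.114. With the replicate block 3, 1 and 2 members and 37 other pathway genes were called. The ratio of VPREB1 to IGLL1 had a log2 difference of 0.31 to 0.38 with a library left out.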
